A study of Homo sapiens with 12 samples.

Results

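Glycolysis and the entry of its product into mitochondria were followed here through 34 genes: the enzymes of the 10 steps of glycolysis, lactate formation and export, the PFKFB enzymes that set fructose 2,6-bisphosphate, the mitochondrial pyruvate carrier, and the pyruvate dehydrogenase complex with its kinases and a phosphatase. The genes were taken by symbol from a list drawn up with earlier results of these data known, so their counts are not those of an unselected set. All 34 were among the 20323 genes of the table and among the 12718 that passed the filter on low counts. Messenger RNA selected with oligo(dT) was sequenced in 4 groups of 3 libraries labelled as A549, an established human lung adenocarcinoma line. The groups were LKB1-deficient cells pretreated with high-dose AA (titled VitC, which ties AA to vitamin C), LKB1-deficient cells given PBS, LKB1-intact cells given high-dose AA, and LKB1-intact cells given PBS. The deficient cells are titled con and labelled LKB1-deficient. The intact cells are labelled WT, and the series design describes them as having intact LKB1. No dose or time is given. The labels also do not say how either genotype was made, whether it is 1 clone, or whether the 3 libraries of a group are separate cultures. The p-values therefore rest on the spread among libraries of a group, which may be technical. LKB1 is the kinase encoded by STK11 and an upstream activator of AMPK, and A549 is widely described as having lost functional LKB1 through a mutation of STK11.

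Glycolysis converts glucose to pyruvate in the cytosol. Its first steps spend ATP to make phosphorylated sugars (the investment phase), and its last steps return ATP and NADH (the payoff phase). Pyruvate is then either reduced to lactate by lactate dehydrogenase and exported by monocarboxylate transporters, or carried into mitochondria and oxidised by the pyruvate dehydrogenase complex, which PDK kinases switch off and PDP phosphatases switch on. Lung adenocarcinoma cells, like many tumour cells, are known for sending much of their glucose to lactate, and hypoxia-inducible factor is a well-known transcriptional activator of many of these genes.

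The members whose response to AA differed most between the genotypes were PFKFB4, PDK3, PGAM1, BPGM and ENO2. The 250 bases before the start site of each are given here, as RefSeq records them on GRCh38.p14, so that the sequence before these starts can be read. Whether these starts are in use in the cells was not tested. PDK4 is added as a member that rose by a like amount in both genotypes. Each sequence reads 5′ to 3′ on the gene's own strand and is in lower case. Capitals mark a core of the hypoxia response element, ACGTG or GCGTG on either strand (CACGT and CACGC when read from the other strand). The letters ACGTG also lie within the E-box CACGTG, so the motifs overlap.
PFKFB4, chr3:48556804-48557053, minus strand: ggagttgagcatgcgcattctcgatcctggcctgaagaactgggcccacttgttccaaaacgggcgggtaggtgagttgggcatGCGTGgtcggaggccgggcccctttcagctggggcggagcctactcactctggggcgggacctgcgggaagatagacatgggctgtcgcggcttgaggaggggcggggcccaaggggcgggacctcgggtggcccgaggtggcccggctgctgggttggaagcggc
PDK3, chrX:24465036-24465285, plus strand: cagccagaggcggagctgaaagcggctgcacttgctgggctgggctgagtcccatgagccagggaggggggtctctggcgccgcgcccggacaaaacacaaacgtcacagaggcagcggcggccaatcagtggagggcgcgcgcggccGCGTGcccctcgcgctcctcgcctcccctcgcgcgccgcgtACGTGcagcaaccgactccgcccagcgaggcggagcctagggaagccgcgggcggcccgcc
PGAM1, chr10:97427568-97427817, plus strand: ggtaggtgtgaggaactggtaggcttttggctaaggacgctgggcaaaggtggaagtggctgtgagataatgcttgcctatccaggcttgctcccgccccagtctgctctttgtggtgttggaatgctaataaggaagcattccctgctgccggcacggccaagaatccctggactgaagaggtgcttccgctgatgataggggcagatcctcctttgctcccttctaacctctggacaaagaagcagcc
BPGM, chr7:134646603-134646852, plus strand: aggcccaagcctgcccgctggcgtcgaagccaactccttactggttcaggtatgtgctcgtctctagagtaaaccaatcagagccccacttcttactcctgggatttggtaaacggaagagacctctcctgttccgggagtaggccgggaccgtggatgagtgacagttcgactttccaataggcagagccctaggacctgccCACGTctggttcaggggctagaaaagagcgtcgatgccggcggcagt
ENO2, chr12:6914330-6914579, plus strand: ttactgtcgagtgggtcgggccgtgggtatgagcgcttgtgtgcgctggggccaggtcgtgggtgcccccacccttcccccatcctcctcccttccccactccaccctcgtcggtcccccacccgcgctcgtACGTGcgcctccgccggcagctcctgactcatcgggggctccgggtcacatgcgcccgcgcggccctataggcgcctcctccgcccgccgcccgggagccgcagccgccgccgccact
PDK4, chr7:95596517-95596766, minus strand: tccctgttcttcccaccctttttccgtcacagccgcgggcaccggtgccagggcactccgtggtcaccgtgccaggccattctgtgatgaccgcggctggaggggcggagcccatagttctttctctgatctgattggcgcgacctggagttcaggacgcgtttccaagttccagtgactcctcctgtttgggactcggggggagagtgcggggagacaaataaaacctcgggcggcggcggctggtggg

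The windows before PFKFB4, BPGM and ENO2 hold 1 core each, that of PDK3 holds 2, and those of PGAM1 and PDK4 hold 0. No E-box is in any of the 6 windows. By the GENCODE release 29 gene models, the RefSeq starts of PFKFB4, PDK3, PGAM1, BPGM and ENO2 lie inside the annotated gene, downstream of its outermost start, and that of PDK4 does not. Of the 34 members, 31 matched the promoter table, with 61 promoters between them (PFKFB2, SLC16A1 and PDP1 did not match). A core lies in 54.1% of the members' 61 promoters and in 43.2% of the 35116 promoters of the table. Counted by gene, 25 of the 31 matched members and 12945 of the 27305 genes of the table have a core in at least 1 promoter, and a gene with many promoters has more chances of one. An E-box lies in 13.1% of the members' promoters and in 6.34% of all. These matches describe letters in a window of 250 bases and are not evidence of binding.

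The genotype labels were first checked against STK11. It averaged 6.64 CPM (estimated counts scaled to library depth with TMM factors) in deficient cells under AA and 26.0 CPM in intact cells under AA, and 5.79 CPM in deficient cells under PBS and 24.5 CPM in intact cells under PBS (n = 3 each). Deficient cells were lower by log2 changes of -1.98 under AA (edgeR adjusted p = 5.29e-13) and -2.08 under PBS (edgeR adjusted p = 1.48e-10). The A549 label was checked against markers, and some went against it. ALDH1A1, an aldehyde dehydrogenase that A549 is known to express strongly, had at most 0.0613 CPM in a library, KRT19 at most 0.5003 CPM and AKR1B10 at most 2.43 CPM. CDKN2A, widely described as deleted in A549, averaged 110.1 CPM in deficient AA, 66.7 in deficient PBS, 105 in intact AA and 67.6 in intact PBS libraries. The epithelial keratins KRT8 and KRT18 were abundant in every library (at least 693 CPM). All 12 libraries are therefore called cells labelled A549, and the identity of the line was not tested further. Of 10 A549 markers, 8 exceeded 1 CPM on average over the libraries. The summed level of the 10 was 2133 to 2169 CPM in deficient AA, 2184 to 2347 in deficient PBS, 3606 to 3735 in intact AA and 2403 to 2491 in intact PBS libraries. KRT8, KRT18 and NQO1 held most of it, at 771, 1001 and 282 CPM in deficient AA. The others of the 8 (AKR1B10, CDH1, ALDH3A1, EPCAM and AKR1C1) were low, with group means of 0.632 to 24.4 CPM. The count and sum thus say little for the label. Of 6 markers of leukocytes, endothelium and fibroblasts, 2 exceeded 1 CPM (CD68 and COL1A1), and the sum of the 6 was 117 to 127 CPM in deficient AA, 94.7 to 102 in deficient PBS, 119.9 to 123 in intact AA and 96.6 to 104 in intact PBS libraries, while PTPRC, PECAM1, VWF and COL3A1 were near 0. Of 6 alveolar type II markers, ABCA3 was the 1 above 1 CPM. Library totals ran from 16055534 to 20306129 estimated counts. The share of counts from mitochondrially encoded genes was 2.53 to 2.62% in deficient AA, 5.07 to 5.36% in deficient PBS, 3.61 to 3.72% in intact AA and 5.16 to 5.33% in intact PBS libraries. The part of these markers and shares in the members' changes was not tested.

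Per unit of transcript length (FPKM), the members spanned a wide range of levels. In intact cells under PBS, GAPDH averaged 3369 ± 28.5 FPKM, ENO1 1812 ± 50.03, LDHA 1581 ± 17.5 and PKM 1029.7 ± 19.9 FPKM (SD, n = 3). The lowest levels there were those of the regulators: PFKFB4 at 2.85 ± 0.514, PDK4 at 3.76 ± 0.268 and PDK3 at 4.08 ± 0.264 FPKM. The most abundant members were thus enzymes of the payoff phase and lactate formation, and the scarcest were regulatory kinases. The enzymes of the 10 steps, without BPGM, and lactate dehydrogenase together took 1.96 ± 0.0265% of all counts in deficient cells under AA and 1.75 ± 0.0401% in deficient cells under PBS. They took 2.31 ± 0.0296% in intact cells under AA and 1.77 ± 0.0265% in intact cells under PBS (SD, n = 3 each). The libraries given AA lay above those given PBS in both genotypes, by more in intact cells, and the 2 groups under PBS overlapped. In deficient cells this sum leaned on GAPDH and was not a rise of every enzyme. Mean CPM under PBS and AA there was 4238 and 5943 for GAPDH and 3124 and 3287 for ENO1. It was 2539 and 2260 for LDHA, and 2205 and 1999 for PKM. A level in these bulk libraries cannot tell a smaller number of expressing cells from less RNA per cell.

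Under AA, 15 of the 34 members rose in LKB1-deficient cells, 9 fell and 10 were not called, at an edgeR quasi-likelihood adjusted p under 0.05 over all genes. Of all 12718 genes tested, 74.4% were called in this comparison, 37% as higher and 37.4% as lower. In LKB1-intact cells 26 members rose, 2 fell and 6 were not called, against 69.8% of all genes called, 34.5% as higher and 35.2% as lower. The members' calls in intact cells were thus mostly rises, where those of all genes were split evenly. The median log2 change over the members was 0.040 in deficient cells, where that of all genes was 0.013, and 0.28 in intact cells, where that of all genes was 0.0069. Most changes were small. At least 1.5-fold, 3 members rose and 4 fell in deficient cells (33.6% of all genes did either), and 4 rose and 1 fell in intact cells (24.9% of all genes). Of the 34, 13 rose in both genotypes, 8 were not called in deficient cells and rose in intact cells, and 5 (HK1, GPI, PGAM1, PKM and LDHA) fell in deficient and rose in intact cells, though GPI had a change of 0.068 in a fit on FPKM, which was not called (limma adjusted p = 0.164). PFKFB2 was the 1 member called lower in both. The libraries of the AA and PBS groups did not overlap for 22 members in deficient cells, 14 higher and 8 lower, against 75.5% of all genes, 37.7% higher and 37.8% lower. In intact cells they did not overlap for 32, 27 higher and 5 lower, against 72.8% of all genes, 36.3% higher and 36.4% lower.

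**Figure D1:**
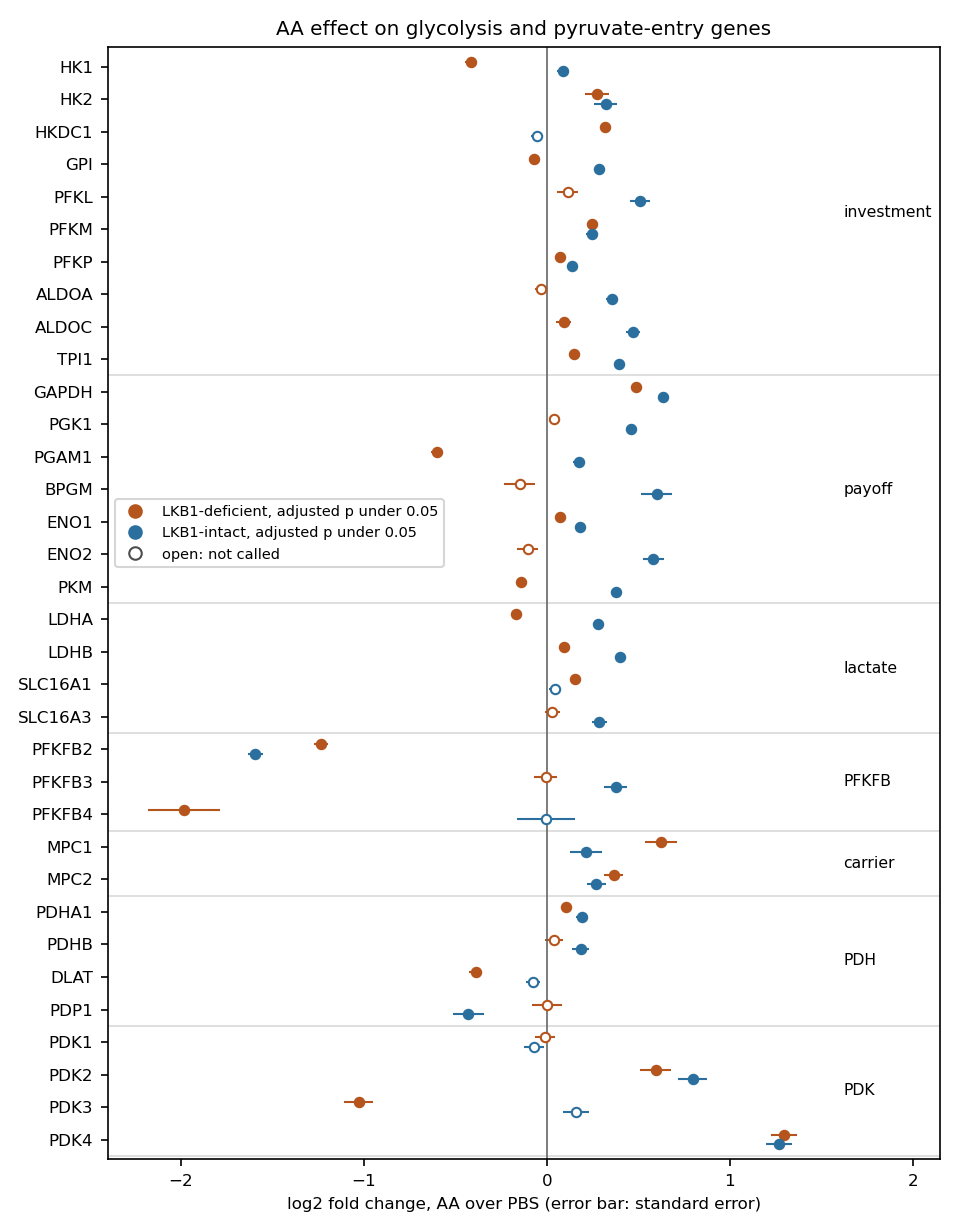
Log2 fold change of each of the 34 members under AA over PBS, in LKB1-deficient (orange) and LKB1-intact (blue) cells, grouped by role from the top. Bars are standard errors and filled points have an adjusted p under 0.05. Blue points lie to the right of 0 for 26 called members, and the orange points of PFKFB4 and PDK3 stand far to the left, at -1.98 and -1.03.

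The hexokinases, which trap glucose in the cell as glucose 6-phosphate, went different ways. HK1 had 174, 164 and 172 CPM in LKB1-deficient cells under AA, against 219, 236 and 225 CPM in deficient cells under PBS. In intact cells HK1 had 236, 238 and 238 CPM under AA, against 225, 221 and 225 CPM under PBS. HK1 was lower in every deficient AA library than in any other library, and its intact AA libraries lay just above the intact PBS ones. It was 1.33-fold lower under AA in deficient cells, a log2 change of -0.41 (SE 0.0337, edgeR adjusted p = 3.07e-10), and rose in intact cells by 0.087 (edgeR adjusted p = 0.0244). Leaving out intact PBS replicate 2 ended the call in intact cells, at an adjusted p of 0.0708. HKDC1 had 365, 368 and 369 CPM in LKB1-deficient cells under AA, against 293, 301 and 290.5 CPM in deficient cells under PBS. In intact cells HKDC1 had 259, 259 and 254 CPM under AA, against 262, 271 and 270.4 CPM under PBS. HKDC1, a hexokinase domain protein and the immediate neighbour of HK1 on chromosome 10 (HKDC1 at 69220303 to 69267559 and HK1 at 69269984 to 69401884, GRCh38, GENCODE release 29), was highest in the 3 deficient AA libraries. It rose in deficient cells by 0.32 (SE 0.0279, edgeR adjusted p = 9.78e-10), while the change in intact cells was -0.056 (edgeR adjusted p = 0.086). HK2, the inducible isoform, rose in both genotypes, by 0.28 (edgeR adjusted p = 0.000658) in deficient and 0.32 (edgeR adjusted p = 0.000126) in intact cells. The difference in AA effect was -0.50 (SE 0.0473, edgeR adjusted p = 2.06e-08) for HK1 and 0.37 (SE 0.0399, edgeR adjusted p = 1.2e-07) for HKDC1, and -0.045 for HK2 (95% interval -0.22 to 0.13).

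Of the other 7 members of the investment phase, 4 rose, 1 fell and 2 were not called in deficient cells, and all 7 rose in intact cells. PFKL had 55.2, 52.8 and 61.9 CPM in LKB1-deficient cells under AA, against 55.03, 52.2 and 49.7 CPM in deficient cells under PBS. In intact cells PFKL had 80.5, 81.5 and 84.2 CPM under AA, against 57.3, 56.9 and 58.6 CPM under PBS. PFKL, the liver-type subunit of phosphofructokinase-1, was highest in the intact AA libraries, and its deficient AA and PBS libraries overlapped. Its log2 change was 0.11 (edgeR adjusted p = 0.0693) in deficient cells and 0.51 (SE 0.0531, edgeR adjusted p = 2.4e-08) in intact cells. In deficient cells leaving out replicate 1 under PBS or replicate 2 under AA gave a call, at adjusted p-values of 0.0325 and 0.018, as did upper quartile factors and library size alone (0.0186 and 0.00934). The muscle-type PFKM rose alike, by 0.25 (edgeR adjusted p = 3.4e-07) in deficient and 0.25 (edgeR adjusted p = 4.85e-07) in intact cells. The platelet-type PFKP rose by 0.074 (edgeR adjusted p = 0.0382) in deficient and 0.14 (edgeR adjusted p = 0.000463) in intact cells, and its call in deficient cells was lost without deficient PBS replicate 1 or 3 or deficient AA replicate 1 or 3 (adjusted p 0.0899 to 0.155). ALDOC had 69.3, 68.7 and 68.8 CPM in LKB1-deficient cells under AA, against 63.5, 66.1 and 64.2 CPM in deficient cells under PBS. In intact cells ALDOC had 92.7, 94.5 and 89.5 CPM under AA, against 67.6, 65.4 and 66.5 CPM under PBS. ALDOC, a minor aldolase here, stood apart in the intact AA libraries. It rose by 0.094 (edgeR adjusted p = 0.0453) in deficient and 0.47 (SE 0.0398, edgeR adjusted p = 8.68e-10) in intact cells. The call in deficient cells was lost without any 1 of intact PBS replicates 1 and 3, deficient PBS replicates 1 and 3 and the 3 deficient AA libraries (adjusted p 0.0517 to 0.122). With the length trend removed, ALDOC was called lower in deficient cells, at -0.15 (edgeR adjusted p = 0.00371). The main aldolase ALDOA, which splits fructose 1,6-bisphosphate, had a log2 change of -0.033 (edgeR adjusted p = 0.376) in deficient cells and rose by 0.36 (edgeR adjusted p = 3.47e-09) in intact cells. It was called lower in deficient cells without deficient PBS replicate 3 (adjusted p = 0.0149) and, at -0.30, with the length trend removed (adjusted p = 2.78e-09). GPI, the glucose phosphate isomerase, fell by 0.069 in deficient cells (edgeR adjusted p = 0.0314) and rose by 0.28 (edgeR adjusted p = 9.28e-09) in intact cells. With the trend on transcript length removed the fall was larger, at -0.18 (adjusted p = 1.3e-06). On FPKM the change was 0.068 and not called (limma adjusted p 0.164 to 0.165). It was also not called with upper quartile factors or library size alone (adjusted p 0.383 and 0.729), nor without intact PBS replicate 2, intact AA replicate 1, deficient PBS replicate 1 or 2, or deficient AA replicate 1 or 2 (adjusted p 0.0525 to 0.12). TPI1, the triose phosphate isomerase, rose in both, by 0.15 (edgeR adjusted p = 4.24e-05) in deficient and 0.39 (edgeR adjusted p = 3.13e-11) in intact cells. With the length trend removed, TPI1 was called lower in deficient cells, at -0.17 (edgeR adjusted p = 2.24e-06).

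Of the 7 members of the payoff phase, 2 rose in deficient cells (GAPDH and ENO1), 2 fell (PGAM1 and PKM) and 3 were not called (PGK1, BPGM and ENO2), while all 7 rose in intact cells. With the trend on transcript length removed, the 3 were called in deficient cells, PGK1 at 0.11 (edgeR adjusted p = 0.000785), BPGM at -0.34 (edgeR adjusted p = 0.000765) and ENO2 at -0.21 (edgeR adjusted p = 0.00246). ENO1 was then lower there, at -0.12 (edgeR adjusted p = 6.32e-05), and PGAM1 and ENO1 lost their calls in intact cells (edgeR adjusted p 0.101 and 0.161). GAPDH had 5902, 5818 and 6110 CPM in LKB1-deficient cells under AA, against 4361, 4338 and 4014 CPM in deficient cells under PBS. In intact cells GAPDH had 6723, 6743 and 6903 CPM under AA, against 4396, 4342 and 4397 CPM under PBS. GAPDH, which makes the NADH of glycolysis, was higher under AA in both genotypes with no overlap, and highest in intact cells. It rose 1.40-fold in deficient and 1.55-fold in intact cells, log2 changes of 0.49 (SE 0.0256, edgeR adjusted p = 1.81e-13) and 0.63 (SE 0.0256, edgeR adjusted p = 5.14e-15). PGAM1 had 373, 363 and 364 CPM in LKB1-deficient cells under AA, against 564, 567 and 537 CPM in deficient cells under PBS. In intact cells PGAM1 had 621, 604 and 639 CPM under AA, against 556, 540.2 and 555 CPM under PBS. PGAM1, the phosphoglycerate mutase, had its lowest values in the 3 deficient AA libraries and its highest in the 3 intact AA libraries. It was 1.52-fold lower under AA in deficient cells, a log2 change of -0.60 (SE 0.0294, edgeR adjusted p = 5.64e-14), and rose in intact cells by 0.17 (SE 0.0289, edgeR adjusted p = 1.58e-05). PGAM1 has near-identical copies in the genome and its estimated count held a fraction in 5 of the 12 libraries, so reads may be shared with them. PGK1, the first ATP-making enzyme, had a log2 change of 0.040 (edgeR adjusted p = 0.189) in deficient cells and rose by 0.46 (SE 0.0271, edgeR adjusted p = 2.48e-12) in intact cells. With upper quartile factors or library size alone, PGK1 was called higher in deficient cells too (adjusted p 0.0148 and 0.00224).

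BPGM had 16.5, 18.9 and 15.9 CPM in LKB1-deficient cells under AA, against 20.7, 17.2 and 18.9 CPM in deficient cells under PBS. In intact cells BPGM had 27.1, 24.5 and 26.0 CPM under AA, against 18.0, 16.5 and 16.7 CPM under PBS. BPGM, which makes 2,3-bisphosphoglycerate, was highest in the intact AA libraries, while the deficient groups overlapped. Its log2 change in deficient cells was -0.15 (edgeR adjusted p = 0.125), and in intact cells it rose 1.52-fold, by 0.60 (SE 0.0824, edgeR adjusted p = 1.39e-06). In deficient cells BPGM was called lower when replicate 2 under PBS or replicate 2 under AA was left out, at adjusted p-values of 0.0449 and 0.0328. ENO2 had 35.0, 33.2 and 37.1 CPM in LKB1-deficient cells under AA, against 38.7, 38.1 and 36.6 CPM in deficient cells under PBS. In intact cells ENO2 had 56.6, 53.8 and 54.98 CPM under AA, against 38.4, 34.5 and 37.7 CPM under PBS. ENO2, the neuronal-type enolase, likewise stood apart in intact AA libraries alone. Its log2 change was -0.10 (edgeR adjusted p = 0.113) in deficient cells, and it rose by 0.58 (SE 0.0563, edgeR adjusted p = 7.67e-09) in intact cells. In deficient cells ENO2 was called lower without deficient AA replicate 3 (adjusted p = 0.0493). ENO1 had 3313, 3221 and 3326 CPM in LKB1-deficient cells under AA, against 3132, 3226 and 3014 CPM in deficient cells under PBS. In intact cells ENO1 had 3555, 3555 and 3661 CPM under AA, against 3150, 3091 and 3257 CPM under PBS. ENO1, the ubiquitous enolase and 99.0% (deficient PBS mean) of enolase FPKM, was highest under AA in intact cells, and its deficient groups overlapped. It rose by 0.073 (edgeR adjusted p = 0.0119) in deficient and 0.18 (edgeR adjusted p = 1.43e-06) in intact cells, the call in deficient cells being lost without deficient PBS replicate 3 (adjusted p = 0.0847). PKM had 2002, 1992 and 2003 CPM in LKB1-deficient cells under AA, against 2158, 2270 and 2186 CPM in deficient cells under PBS. In intact cells PKM had 2961, 2897 and 3032 CPM under AA, against 2238, 2278 and 2324 CPM under PBS. PKM, the pyruvate kinase that ends glycolysis, was lower in every deficient AA library than in any PBS library and higher in every intact AA library. It fell by 0.14 (SE 0.0234, edgeR adjusted p = 1.22e-05) in deficient cells and rose in intact cells by 0.38 (SE 0.0233, edgeR adjusted p = 5.58e-12). The counts are per gene, so its splice forms were not told apart.

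**Figure D2:**
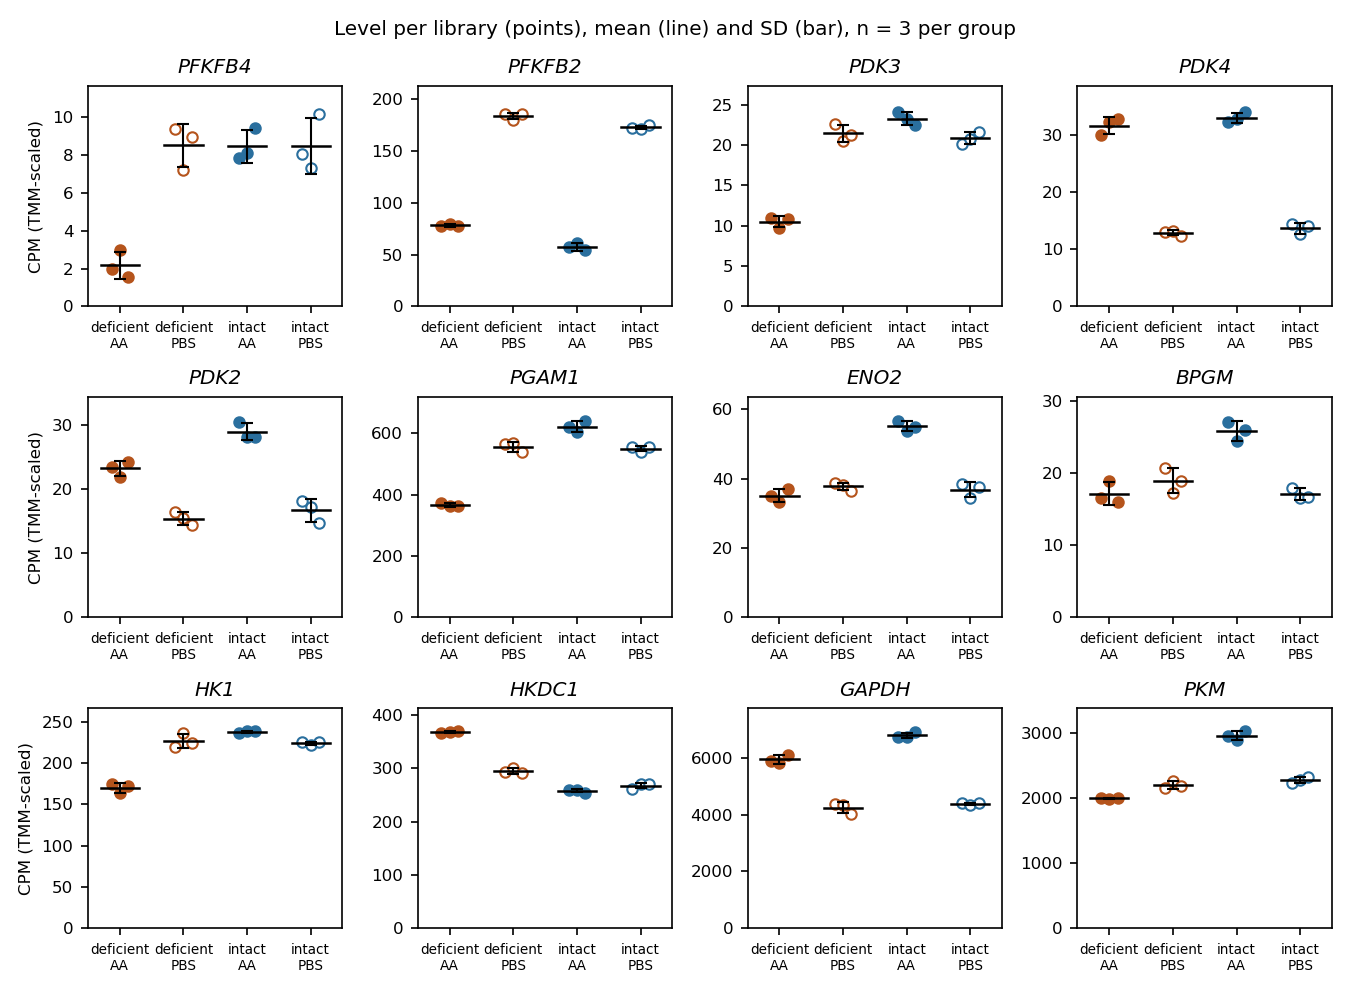
Level of 12 members in each of the 12 libraries (CPM, TMM-scaled, linear axes from 0). Points are libraries, filled under AA and open under PBS, orange for LKB1-deficient and blue for LKB1-intact cells, and lines and bars are the mean and SD of 3 libraries. The lowest points of PFKFB4, PDK3, PGAM1 and HK1 are the 3 deficient AA libraries, while PFKFB2 is lower and PDK4 higher under AA in both genotypes.

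Of the 4 members of lactate formation and export, 2 rose and 1 fell in deficient cells, and 3 rose in intact cells. LDHA had 2297, 2253 and 2231 CPM in LKB1-deficient cells under AA, against 2493, 2528 and 2596 CPM in deficient cells under PBS. In intact cells LDHA had 3008, 2941 and 3037 CPM under AA, against 2437, 2446 and 2520 CPM under PBS. LDHA, the subunit that favours lactate formation, was below both PBS groups in every deficient AA library and above them in every intact AA library. It fell by 0.17 (SE 0.0222, edgeR adjusted p = 6.2e-07) in deficient cells and rose in intact cells by 0.28 (SE 0.0222, edgeR adjusted p = 3.34e-10). LDHB, the subunit better known for oxidising lactate, rose in both genotypes, by 0.094 (edgeR adjusted p = 0.00216) in deficient and 0.40 (edgeR adjusted p = 7.45e-12) in intact cells. With the trend on transcript length removed, LDHB was called lower in deficient cells, at -0.24 (edgeR adjusted p = 1.99e-09). SLC16A3, a monocarboxylate transporter known mainly for lactate export, had a log2 change of 0.029 (edgeR adjusted p = 0.533) in deficient cells and rose by 0.29 (edgeR adjusted p = 2.01e-06) in intact cells. SLC16A1, a transporter that carries lactate in either direction, rose in deficient cells by 0.15 (edgeR adjusted p = 9.09e-05), with 0.043 (edgeR adjusted p = 0.211) in intact cells.

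The PFKFB enzymes make and break fructose 2,6-bisphosphate, the strongest activator of phosphofructokinase-1, and held the largest falls. PFKFB4 had 1.97, 2.96 and 1.57 CPM in LKB1-deficient cells under AA, against 9.38, 7.23 and 8.97 CPM in deficient cells under PBS. In intact cells PFKFB4 had 7.85, 8.12 and 9.47 CPM under AA, against 8.05, 7.30 and 10.2 CPM under PBS. The 3 deficient AA libraries lay below every other library, and the groups of intact cells overlapped. PFKFB4 was 3.95-fold lower under AA in deficient cells, a log2 change of -1.98 (SE 0.194, edgeR adjusted p = 6.15e-09). In intact cells the change was -0.0039 (edgeR adjusted p = 0.984), with a 95% interval -0.32 to 0.31. PFKFB2 had 77.1, 79.9 and 77.3 CPM in LKB1-deficient cells under AA, against 185, 179.9 and 185 CPM in deficient cells under PBS. In intact cells PFKFB2 had 57.2, 60.8 and 54.0 CPM under AA, against 172, 171 and 175 CPM under PBS. PFKFB2 was lower under AA in both genotypes and did not overlap in either, with intact AA libraries the lowest. It was 2.35-fold lower in deficient and 3.02-fold lower in intact cells, log2 changes of -1.23 (SE 0.0390, edgeR adjusted p = 3.37e-17) and -1.59 (SE 0.0405, edgeR adjusted p = 4.32e-18). PFKFB3, the isoform with the highest ratio of kinase to phosphatase activity, had a log2 change of -0.0057 (edgeR adjusted p = 0.941) in deficient cells and rose by 0.38 (edgeR adjusted p = 1.47e-05) in intact cells.

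Both subunits of the mitochondrial pyruvate carrier were called higher in both genotypes in the main fit. MPC1 had 24.2, 20.2 and 23.3 CPM in LKB1-deficient cells under AA, against 13.8, 15 and 15.1 CPM in deficient cells under PBS. In intact cells MPC1 had 18.8, 18.4 and 22.1 CPM under AA, against 17.8, 16.3 and 17.1 CPM under PBS. MPC1 was higher under AA with no overlap in either genotype, and its mean was highest in deficient cells. It rose 1.54-fold in deficient cells, a log2 change of 0.62 (SE 0.0889, edgeR adjusted p = 1.72e-06), and by 0.22 (edgeR adjusted p = 0.0342) in intact cells. The call in intact cells was lost without intact PBS replicate 2 or 3 or intact AA replicate 3 (adjusted p 0.065 to 0.23). With the trend on transcript length removed, the rise of MPC1 in deficient cells was smaller, at 0.21 (edgeR adjusted p = 0.0358). In intact cells MPC1 was then at -0.12 and not called (edgeR adjusted p = 0.232). MPC2 rose by 0.37 (edgeR adjusted p = 1.63e-06) in deficient and 0.27 (edgeR adjusted p = 9.18e-05) in intact cells. In the pyruvate dehydrogenase complex, the catalytic subunit PDHA1 rose by 0.11 (edgeR adjusted p = 0.00353) in deficient and 0.19 (edgeR adjusted p = 8.67e-06) in intact cells. With the length trend removed, PDHA1 was at -0.051 in deficient cells and not called (edgeR adjusted p = 0.13). Its partner PDHB had a log2 change of 0.041 (edgeR adjusted p = 0.45) in deficient cells and rose by 0.19 (edgeR adjusted p = 0.00162) in intact cells. In deficient cells PDHB was called higher without deficient PBS replicate 3 (adjusted p = 0.0255). With the length trend removed, PDHB was called lower in deficient cells, at -0.22 (edgeR adjusted p = 0.000137), and was not called in intact cells (edgeR adjusted p = 0.936). DLAT, the transacetylase core, fell by 0.39 in deficient cells (edgeR adjusted p = 4.73e-09), with a log2 change of -0.074 (edgeR adjusted p = 0.0769) in intact cells. PDP1, a phosphatase that reactivates the complex, had a log2 change of 0.00031 (edgeR adjusted p = 0.998) in deficient cells and fell by 0.43 in intact cells (edgeR adjusted p = 0.000131).

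The 4 pyruvate dehydrogenase kinases, which phosphorylate and inactivate that complex, did not all move alike. PDK4 and PDK2 rose in both genotypes, PDK3 was called lower in deficient cells alone, and PDK1 was called in neither. PDK4 had 29.9, 32.2 and 32.7 CPM in LKB1-deficient cells under AA, against 13.1, 13.1 and 12.4 CPM in deficient cells under PBS. In intact cells PDK4 had 32.2, 32.7 and 33.9 CPM under AA, against 14.4, 12.6 and 14.0 CPM under PBS. PDK4 was higher in every AA library than in any PBS library. It rose 2.46-fold in deficient and 2.41-fold in intact cells, log2 changes of 1.297 (SE 0.0725, edgeR adjusted p = 5.35e-13) and 1.27 (SE 0.0710, edgeR adjusted p = 1.08e-12), with a difference of 0.027 (95% interval -0.17 to 0.23). PDK2 had 23.5, 21.9 and 24.3 CPM in LKB1-deficient cells under AA, against 16.4, 15.4 and 14.4 CPM in deficient cells under PBS. In intact cells PDK2 had 30.5, 28.2 and 28.2 CPM under AA, against 18.1, 17.2 and 14.7 CPM under PBS. PDK2 was also higher in every AA library, most in intact cells. It rose 1.51-fold in deficient and 1.74-fold in intact cells, log2 changes of 0.60 (SE 0.0829, edgeR adjusted p = 1.23e-06) and 0.80 (SE 0.0797, edgeR adjusted p = 1.29e-08). The difference in AA effect was not called for PDK2. With the trend on transcript length removed it was -0.22 (edgeR adjusted p = 0.124). PDK3 had 10.9, 9.69 and 10.9 CPM in LKB1-deficient cells under AA, against 22.7, 20.5 and 21.2 CPM in deficient cells under PBS. In intact cells PDK3 had 24.1, 23.3 and 22.4 CPM under AA, against 20.2, 20.7 and 21.7 CPM under PBS. PDK3 was lowest in the 3 deficient AA libraries, and its intact AA libraries lay slightly above the intact PBS ones. It was 2.04-fold lower under AA in deficient cells, a log2 change of -1.03 (SE 0.0793, edgeR adjusted p = 1.22e-10), with 0.16 (edgeR adjusted p = 0.0555) in intact cells. With RLE or upper quartile factors or on FPKM, PDK3 was called higher in intact cells (adjusted p 0.00935 to 0.0494). PDK1 was called in neither genotype, at -0.010 (edgeR adjusted p = 0.873) in deficient and -0.070 (edgeR adjusted p = 0.241) in intact cells.

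Because members of a step moved unequally, the make-up of several steps changed under AA. HKDC1 made up 64.0 ± 0.793% of hexokinase FPKM in deficient cells under AA, 53.4 ± 0.618% in deficient cells under PBS, 48.0 ± 0.119% in intact cells under AA and 51.0 ± 0.630% in intact cells under PBS (SD, n = 3 each). The share of HK1 was 30.0 ± 0.750% in deficient cells under AA, 41.6 ± 0.535% in deficient cells under PBS, 44.9 ± 0.574% in intact cells under AA and 43.2 ± 0.601% in intact cells under PBS. PFKFB2 made up 56.4 ± 1.24% of PFKFB FPKM in deficient cells under AA and 69.5 ± 2.01% in deficient cells under PBS. Its share was 38.5 ± 2.97% in intact cells under AA and 68.9 ± 1.297% in intact cells under PBS. PFKFB3 was the leading isoform in intact cells under AA, at 48.6 ± 0.717%, and PFKFB2 in the other groups. PDK4 made up 28.8 ± 2.096% of PDK FPKM in deficient cells under AA and 14.2 ± 0.689% in deficient cells under PBS, and 25.9 ± 1.44% in intact cells under AA and 14.8 ± 1.84% in intact cells under PBS. PDK3 made up 8.27 ± 1.08% in deficient cells under AA and 16.7 ± 2.54% in deficient cells under PBS. The share of LDHB among lactate dehydrogenases was 24.7 ± 0.860% and 21.1 ± 1.12% in deficient cells under AA and PBS, and 24.4 ± 0.722% and 21.9 ± 0.302% in intact cells under AA and PBS. These shares are descriptions with no test.

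**Figure D3:**
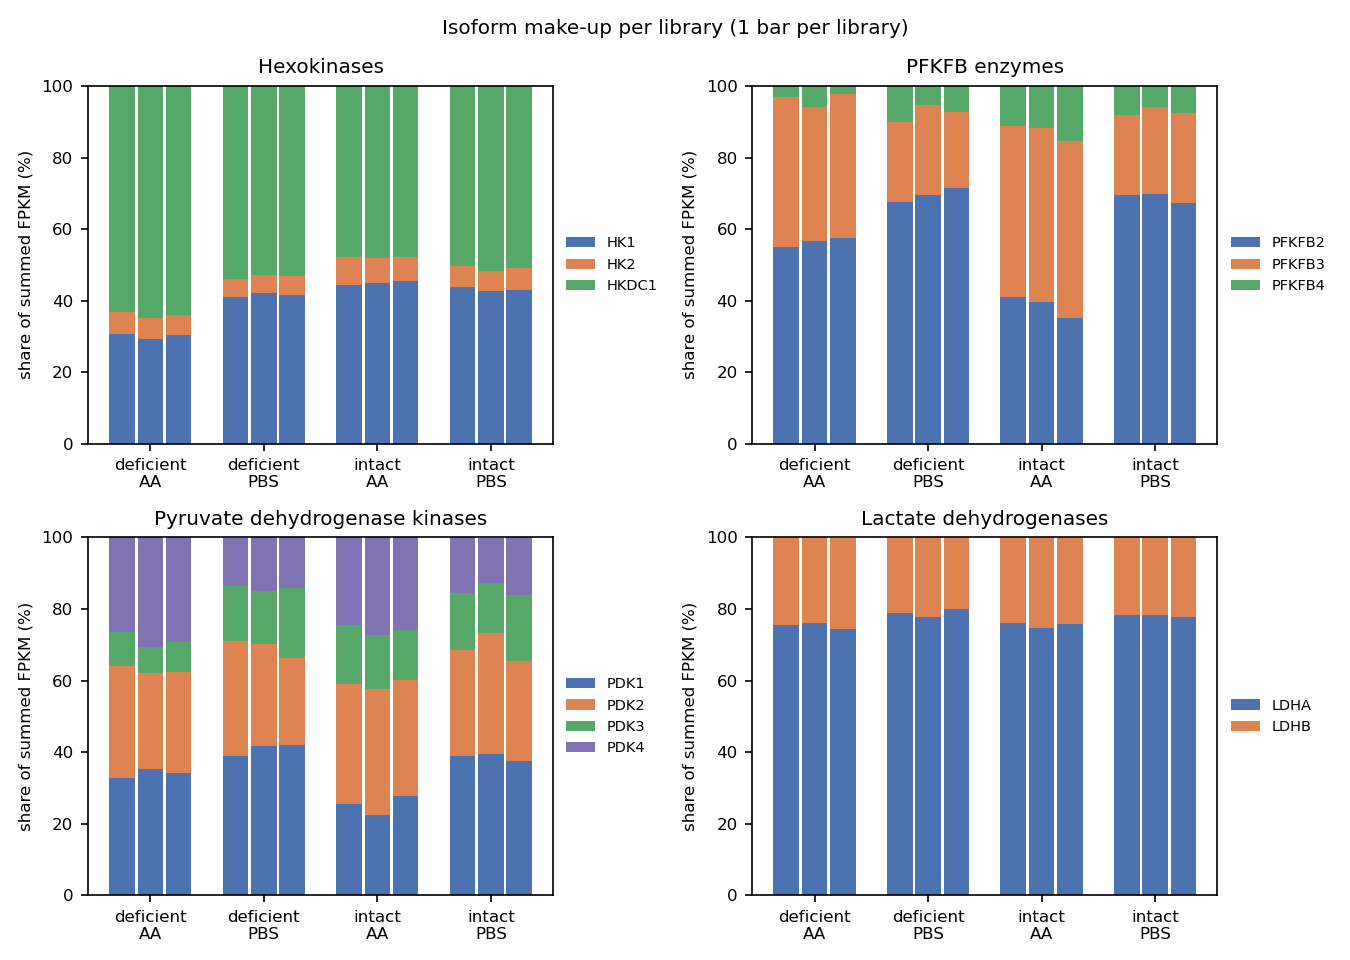
Share of each isoform in the summed FPKM of its step (%), 1 bar per library, for the hexokinases, PFKFB enzymes, pyruvate dehydrogenase kinases and lactate dehydrogenases. HKDC1 (green, top of the first panel) is largest in the 3 deficient AA bars, at a mean of 64.0%, and PFKFB3 exceeds PFKFB2 in the 3 intact AA bars of the second panel.

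The difference in AA effect between the genotypes was tested as an interaction, deficient minus intact. It was lower for 20 members, higher for 5 and not called for 9, against 44.6% of all genes called, 21.6% higher and 23% lower. The members' median was -0.25, where that of all genes was -0.013. On FPKM (limma, log2(FPKM + 1)) the calls over all genes leaned to higher, with 60.3% of them higher against 48.4% here, and 18 members were lower and 5 higher. At least 1.5-fold, 5 members were lower and 0 higher (6.13% of all genes were lower and 6.43% higher by this rule). They were PFKFB4 at -1.98 (SE 0.254, edgeR adjusted p = 1.65e-06), PDK3 at -1.19 (SE 0.107, edgeR adjusted p = 1e-08), PGAM1 at -0.78 (SE 0.0412, edgeR adjusted p = 2.34e-12), BPGM at -0.75 (SE 0.119, edgeR adjusted p = 2.46e-05) and ENO2 at -0.69 (SE 0.0815, edgeR adjusted p = 5.6e-07). All 7 payoff members were lower, among them PKM at -0.52 (edgeR adjusted p = 4.25e-11), PGK1 at -0.42 (edgeR adjusted p = 1.2e-08) and GAPDH at -0.14 (edgeR adjusted p = 0.00239). The call of ENO1, at -0.11 (edgeR adjusted p = 0.0163), was lost without intact PBS replicate 2 or deficient PBS replicate 2 (adjusted p 0.0646 and 0.051), with scaling by library size alone (0.215) and on FPKM (0.382 to 0.39). The GAPDH call was also lost on FPKM (adjusted p 0.151 to 0.158). Of the 10 investment members 6 were lower and 1, HKDC1, higher. LDHA was lower at -0.45 (edgeR adjusted p = 2.08e-10), LDHB at -0.31 (edgeR adjusted p = 4.1e-07) and SLC16A3 at -0.26 (edgeR adjusted p = 0.000927). The members with a higher difference were PDP1 at 0.43 (edgeR adjusted p = 0.00537), MPC1 at 0.41 (edgeR adjusted p = 0.0112), HKDC1, PFKFB2 at 0.36 (edgeR adjusted p = 2.06e-05) and SLC16A1 at 0.11 (edgeR adjusted p = 0.0377). For PDP1 and PFKFB2 this was a smaller fall in deficient than in intact cells or none, and for MPC1 a larger rise. The SLC16A1 call was lost without any 1 of intact PBS replicates 1 and 2, intact AA replicates 1 and 3, deficient PBS replicate 1 and deficient AA replicate 1 (adjusted p 0.0567 to 0.115). PDHA1 and PDHB, at -0.087 (edgeR adjusted p = 0.108) and -0.14 (edgeR adjusted p = 0.0879), were called lower without deficient PBS replicate 1 (PDHA1, adjusted p = 0.0482) or deficient PBS replicate 2 (PDHB, adjusted p = 0.00999). Both were also called lower with the length trend removed (edgeR adjusted p = 0.01 for PDHA1 and 0.00777 for PDHB).

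The members were also split by a list of known hypoxia-inducible factor targets, which holds 19 of them. The list was drawn up with earlier results of these data known, and its counts are a description. Of the 19, 16 had a lower AA effect in deficient than in intact cells and 0 a higher one, with a median difference of -0.38. Of the other 15 members, 4 were lower and 5 higher, with a median of 0.00094. In percent, 84.2% of the listed members were lower and 0% higher, and 26.7% of the others were lower and 33.3% higher. Over all genes tested, 23% were lower and 21.6% higher. Under AA 6 of the 19 rose and 6 fell in deficient cells (31.6% each), and 17 rose (89.5%) and 0 fell in intact cells. Over all genes tested, 37% rose and 37.4% fell in deficient cells, and 34.5% rose and 35.2% fell in intact cells. The 3 listed members whose difference was not called were PFKP, HK2 and PDK1. A hypoxia response element core lay in 64.1% of the 39 promoters of listed members and in 36.4% of the 22 promoters of the others, beside 43.2% of all promoters. By gene it lay in at least 1 promoter of 17 of the 19 listed members and of 8 of the 12 others, beside 12945 of 27305 genes, so the others lay below all promoters by the first count and above all genes by the second. PGAM1 had none in the window shown above. PFKFB2, SLC16A1 and PDP1, which did not match the promoter table, are all among the members not listed. Genes may be known as targets partly because such cores lie near them. The promoter shares are therefore not separate support for the list or the split. Hypoxia-inducible factor targets outside the pathway moved both ways. Of 26 tested, 5 had a higher and 9 a lower difference, 17 rose and 5 fell in deficient cells, and 20 rose and 3 fell in intact cells. In percent, 19.2% had a higher and 34.6% a lower difference, beside 21.6% and 23% of all genes. In deficient cells 65.4% rose and 19.2% fell, beside 37% and 37.4% of all genes. In intact cells 76.9% rose and 11.5% fell, beside 34.5% and 35.2% of all genes. CA12, a carbonic anhydrase, averaged 32.9 ± 0.624 CPM in deficient cells under AA and 62.2 ± 2.61 in deficient cells under PBS, and 82.1 ± 1.73 in intact cells under AA and 63.7 ± 2.40 in intact cells under PBS (SD, n = 3 each), with a difference of -1.29 (edgeR adjusted p = 1.81e-12). NDRG1, a stress-response gene, averaged 85.2 ± 5.63 CPM and 68.9 ± 5.12 CPM in deficient cells under AA and PBS, and 201 ± 10.3 CPM and 69.5 ± 5.004 CPM in intact cells under AA and PBS, with a difference of -1.22 (edgeR adjusted p = 1.31e-10). STC2, a secreted glycoprotein hormone, went the other way, at 368 ± 10.3 CPM and 100.1 ± 5.30 CPM in deficient cells under AA and PBS, and 80.6 ± 4.07 CPM and 91.6 ± 3.84 CPM in intact cells under AA and PBS, with a difference of 2.06 (edgeR adjusted p = 3.09e-16). The glucose transporters on the list, SLC2A3 and SLC2A1, rose in both genotypes, SLC2A3 by 2.92 (edgeR adjusted p = 3.85e-12) in deficient and 3.74 (edgeR adjusted p = 2.15e-13) in intact cells. SLC2A1 rose by 0.91 (edgeR adjusted p = 6.87e-14) in deficient and 0.61 (edgeR adjusted p = 1.06e-10) in intact cells. CA9, another gene of the list, averaged 0.151 CPM in deficient cells under AA and 0.816 CPM under PBS, on few counts. In intact cells CA9 averaged 3.15 CPM under AA and 1.26 CPM under PBS.

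**Figure D4:**
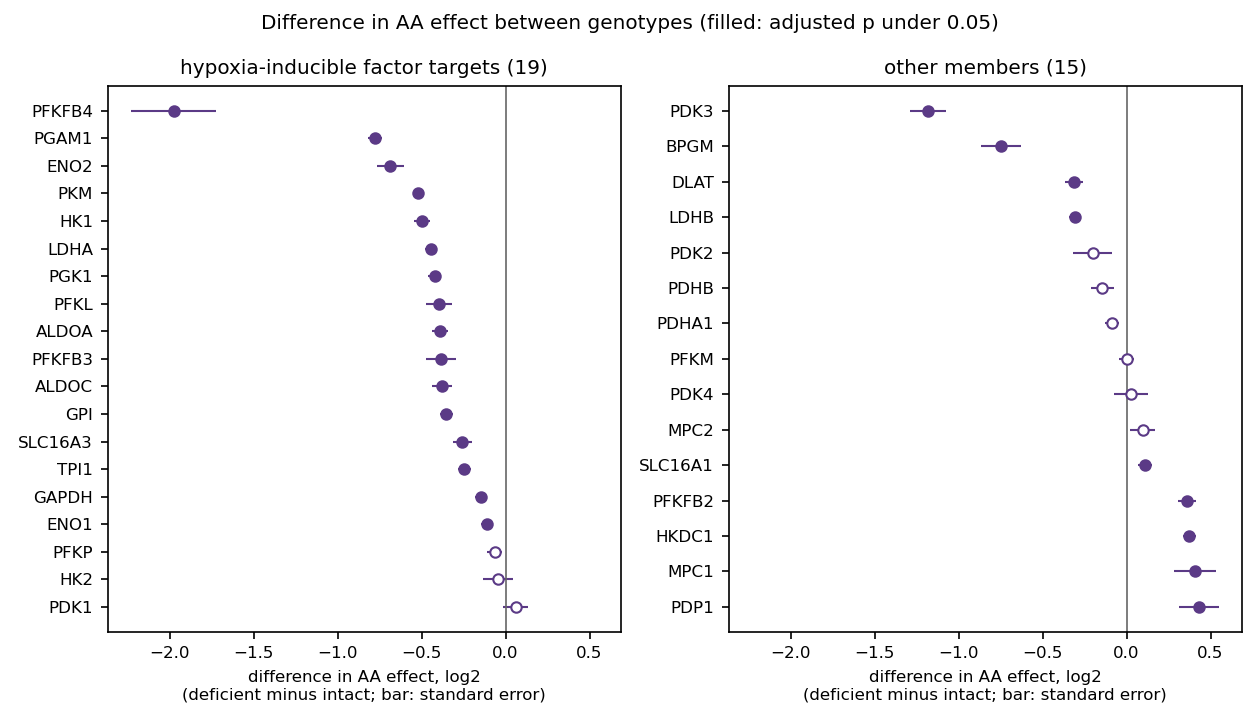
Difference in AA effect between the genotypes (log2, deficient minus intact) for the 19 members listed as hypoxia-inducible factor targets and the other 15, sorted within each panel. Bars are standard errors and filled points have an adjusted p under 0.05. In the left panel 16 filled points lie left of 0 and none to the right, and the right panel has 4 filled points to the left and 5 to the right.

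Without AA the genotypes were close. Under PBS, deficient against intact cells differed in 1 member, HKDC1, and 35 of 12718 genes (0.275%) were called, 0.055% as higher. HKDC1 was higher in deficient cells by 0.14 (SE 0.0284, edgeR adjusted p = 0.0331), with no overlap. The call was lost without any 1 of the 6 PBS libraries, intact AA replicate 1 or deficient AA replicate 1 (adjusted p 0.053 to 0.206). The other log2 differences lay between -0.22 (MPC1, 95% interval -0.40 to -0.036) and 0.15 (BPGM, 95% interval -0.020 to 0.32). The libraries did not overlap for 2 members that were higher and 4 that were lower in deficient cells, against 6.33% and 7.12% of all genes. Under AA, 23 members were lower in deficient than in intact cells and 4 higher, against 59% of all genes called, 28.7% higher and 30.3% lower, and 29 members did not overlap (63.2% of all genes). At least 1.5-fold, 5 were lower and 0 higher (7.69% of all genes were lower and 7.03% higher by this rule): PFKFB4 at -1.98, PDK3 at -1.15, PGAM1 at -0.76, ENO2 at -0.65 and BPGM at -0.60. This comparison shares its libraries with the AA comparisons above. On FPKM 60.3% of the calls over all genes were higher, against 48.7% here. The 4 higher members were HKDC1 at 0.51 (edgeR adjusted p = 1.02e-12), PFKFB2 at 0.45 (edgeR adjusted p = 9.11e-09), PDP1 at 0.37 (edgeR adjusted p = 0.000689) and SLC16A1 at 0.077 (edgeR adjusted p = 0.0315). The small calls of HK2, at -0.18 (edgeR adjusted p = 0.0186), PFKP, at -0.076 (edgeR adjusted p = 0.0409), and SLC16A1 did not hold without single libraries. They were lost for HK2 without intact AA replicate 1 or deficient AA replicate 2 or 3 (adjusted p 0.0508 to 0.169). They were lost for PFKP without any 1 of the intact PBS libraries, intact AA replicates 1 and 3 and deficient AA replicates 1 and 2 (adjusted p 0.0501 to 0.193), and for SLC16A1 without intact AA replicate 1 or 3 or deficient AA replicate 1 (adjusted p 0.063 to 0.164). MPC1 was called higher without intact AA replicate 3 (adjusted p = 0.0105) or deficient AA replicate 2 (adjusted p = 0.0152), and PDHB lower without intact AA replicate 2 or deficient PBS replicate 2 or 3 (adjusted p 0.0259 to 0.0441).

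Other genes of the pathway, from a list of 37 of which 28 were tested, moved in both directions. In deficient cells 14 rose and 6 fell under AA, in intact cells 18 rose and 8 fell, and the difference was higher for 4 and lower for 10. In percent, 50% rose and 21.4% fell in deficient cells, beside 37% and 37.4% of all genes. In intact cells 64.3% rose and 28.6% fell, beside 34.5% and 35.2% of all genes. The difference was higher for 14.3% and lower for 35.7%, beside 21.6% and 23% of all genes. PCK2, the mitochondrial enzyme that makes phosphoenolpyruvate from oxaloacetate, averaged 102 ± 4.02 CPM in deficient cells under AA and 18.8 ± 1.33 CPM in deficient cells under PBS. It averaged 27.0 ± 0.857 CPM in intact cells under AA and 18.8 ± 0.565 CPM in intact cells under PBS (SD, n = 3 each). It rose 5.41-fold in deficient and 1.43-fold in intact cells, a difference of 1.92 (edgeR adjusted p = 3.04e-13). GOT1, the cytosolic aspartate aminotransferase, also rose more in deficient cells, with a difference of 1.14 (edgeR adjusted p = 4.22e-10), on log2 changes of 1.44 in deficient and 0.30 in intact cells. PDP2, the other pyruvate dehydrogenase phosphatase, fell by 2.17 in deficient cells (edgeR adjusted p = 8.18e-16) and by 1.78 in intact cells (edgeR adjusted p = 3.8e-14), both on the log2 scale. LDHD, the mitochondrial D-lactate dehydrogenase, rose by 1.21 (edgeR adjusted p = 1.13e-07) in deficient and 1.24 (edgeR adjusted p = 8.7e-08) in intact cells. GALM, the mutarotase that prepares glucose, rose by 0.58 (edgeR adjusted p = 1e-08) in deficient and 1.09 (edgeR adjusted p = 2.72e-13) in intact cells.

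Transcript length moved with the AA effect. Over 12308 genes with a length from counts and FPKM, the log2 change fell with length, with a Spearman correlation across genes of -0.43 in deficient and -0.41 in intact cells, and -0.15 for the difference. Genes are not independent replicates, and the correlation is a description. The median length was 2289 bases for the members and 2536 for all genes. With the trend removed from each library, 15 members rose and 17 fell in deficient cells, with a median of -0.088, against 70.3% of all genes called, 4448 higher and 4487 lower. In intact cells 25 rose and 2 fell, with a median of 0.18, against 64.8% of all genes called, 4136 higher and 4111 lower. The difference was then higher for 5 and lower for 22, with a median of -0.26, against 44.9% of all genes called, 2856 higher and 2860 lower. Members called in deficient cells with the trend removed and not without were ALDOA, BPGM, ENO2 and PDHB as lower, and PGK1, PFKL, PFKFB3, PDK1 and PDP1 as higher. PDHA1 alone lost its call there. The direction of small changes in deficient cells thus rests on this choice. GAPDH kept a rise, at 0.15, while the log2 change became -0.17 for TPI1, -0.15 for ALDOC, -0.12 for ENO1 and -0.24 for LDHB. The large changes kept their direction in deficient cells, with PFKFB4 at -1.90, PDK4 at 1.47, PFKFB2 at -0.81, PDK3 at -0.74 and PGAM1 at -0.78. In intact cells PGAM1, at 0.050, and ENO1, at 0.039, were no longer called, and MPC1 became -0.12. Whether the trend is technical was not tested.

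**Figure D5:**
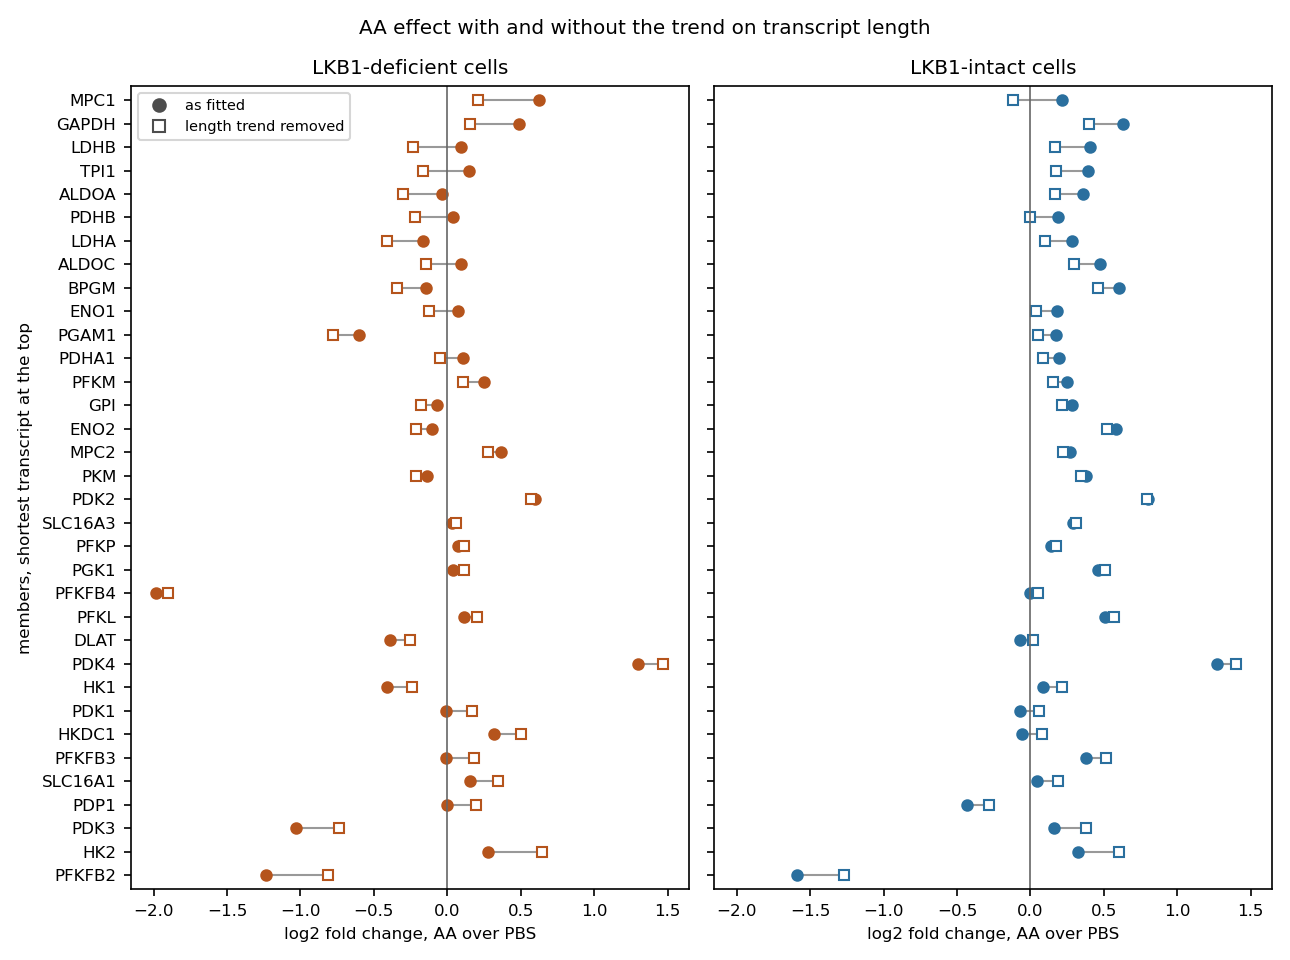
Log2 fold change of each member under AA over PBS as fitted (filled circles) and with the trend on transcript length removed (open squares), in LKB1-deficient cells (left) and LKB1-intact cells (right), with the shortest transcript at the top. Short members move left and long members right when the trend is removed. In deficient cells TPI1, LDHB, ALDOC, ENO1, PDHA1, PDHB, PFKFB3 and PDK1 cross 0, while PFKFB4, PFKFB2, PDK3 and PDK4 stay far from it.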

How the data were processed

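Gene-level estimated counts and FPKM values, as deposited by the authors, covered 12 RNA-seq libraries of oligo(dT)-selected RNA, 3 in each of 4 groups taken from the sample labels. The submitters' processing notes list RSEM, StringTie 1.3.1, HISAT2 2.1.0, Bowtie2 2.2.8 and fastp 0.18.0. The sources used here give neither the genome build nor the strand setting. From 10.9 to 11.5% of the deposited estimated counts per library held a fraction, so they were rounded. The deposited FPKM values, scaled for transcript length and library depth by the authors, gave levels and isoform shares.

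Genes passing edgeR's filter by group (minimum count 10) numbered 12718 of 20323 and held 99.97% of counts, and library totals were 16055534 to 20306129. One edgeR 4.0.16 quasi-likelihood fit (R 4.3.3) on the 12 libraries with TMM factors gave 5 comparisons, with p-values adjusted by Benjamini-Hochberg over all tested genes and called under 0.05, and again with at least 1.5-fold. It was also run on simulated counts in which few genes were changed, in the deficient AA group alone. Most genes were called under AA in the real data, so that run does not show how the fit behaves there. The standard error is the log2 change divided by the square root of the F statistic. Intervals are at 95%, and shown levels are CPM with TMM factors.

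The members and lists were chosen with earlier results of these data known. Values in every library are given for the 8 called members of largest change in each AA comparison and in the difference, the 5 such in each comparison of genotypes, and GAPDH, LDHA, PKM and ENO1. Of each context list, up to 4 called genes of largest change per comparison could be named. SLC2A1 was named after its values were seen. Alternatives were other scalings, filters, DESeq2 1.42.0, limma 3.58.1 (voom, and log2 FPKM with pseudocounts of 1 and 0.1 for genes of at least 1 FPKM in 3 libraries), removal of a trend on transcript length, a replicate block and leaving out each library.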

Additional observations from a re-analysis of the deposited data

Results flagged for a closer look

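The AA effect differed between LKB1-deficient and LKB1-intact cells for 25 of the 34 members, by the interaction test given in the report (edgeR adjusted p under 0.05, 3 libraries a group), beside 44.6% of all genes. The values that follow are log2 differences, deficient minus intact, and no explanation was weighed.

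In the investment phase the difference was -0.50 for HK1, 0.37 for HKDC1, -0.35 for GPI, -0.40 for PFKL, -0.39 for ALDOA, -0.38 for ALDOC and -0.25 for TPI1. In the payoff phase it was -0.14 for GAPDH, -0.42 for PGK1, -0.78 for PGAM1, -0.75 for BPGM, -0.11 for ENO1, -0.69 for ENO2 and -0.52 for PKM. HKDC1 was the 1 gene of these with a higher value in deficient cells.

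For lactate formation and export it was -0.45 for LDHA, -0.31 for LDHB, 0.11 for SLC16A1 and -0.26 for SLC16A3. Among the PFKFB enzymes it was 0.36 for PFKFB2, -0.38 for PFKFB3 and -1.98 for PFKFB4. At pyruvate entry it was 0.41 for MPC1, -1.19 for PDK3, -0.31 for DLAT and 0.43 for PDP1.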

How the results depend on the processing

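Over all alternatives, 4045 of the members' log2 changes kept their call or lack of one, 102 lost the call and 56 gained one. Another 13 changed sign with a call as fitted, in the alternative or in both. Changes of sign without a call in either are among the 4045. An example is PDK1 in intact cells, which became 0.061 with the length trend removed. Of the counts of called members, 232 stayed within 1.5 times of the reported count and 16 did not. In deficient cells, GPI became 0.068 on log2(FPKM + 1) and 0.068 on log2(FPKM + 0.1). The others of the 13 came with the length trend removed. In deficient cells it gave -0.15 for ALDOC, -0.17 for TPI1, -0.12 for ENO1, -0.24 for LDHB, 0.18 for PFKFB3, 0.17 for PDK1, -0.051 for PDHA1 and -0.22 for PDHB. In intact cells it gave 0.077 for HKDC1, -0.12 for MPC1 and -0.0045 for PDHB. The cause was not tested. Members changed at least 1.5-fold in deficient cells numbered 4 on log2(FPKM + 1), against 7. Deficient against intact under AA, they numbered 3 on either FPKM scale, against 5. Under PBS the 1 called member became 0 on both FPKM scales, with the replicate block, with the libraries of the comparison alone and at an adjusted p under 0.01, and 0 to 1 when single libraries were left out. Calls over all genes under PBS were 0.275%, against 0.66% with no filter, 0.425% with DESeq2, 0.0434% on FPKM, 0.0393% at an adjusted p under 0.01 and 0.055 to 0.362% without single libraries. As a share of summed FPKM, glycolytic enzymes and lactate dehydrogenase took 2.24% in deficient AA, 2.11% in deficient PBS, 2.59% in intact AA and 2.14% in intact PBS libraries. Of the shares, 270 moved by less than the SD between libraries and 82 by more.

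The replicate numbers did not pair the libraries: same-numbered libraries correlated at -0.169 to 0.12 in their deviations (18 pairs), and other pairs at -0.171 to 0.148 (36 pairs). With the replicate block 22 members were called in deficient cells, against 24, and 28 in intact cells, against 28, with 73.9% and 69% of all genes called.

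The text rests on 3 libraries a group, whose origin in separate cultures is not stated, and on cells whose A549 markers are in part absent. PFKFB4, at 1.57 to 10.2 CPM, has the largest standard errors of the members. The estimated counts of PDHA1 and ALDOA held a fraction in 12 libraries, of DLAT in 9, of LDHB and SLC16A3 in 8 and of GPI and PGAM1 in 5, and whether reads are shared with other copies was not tested.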
